A study of Mus musculus with 6 samples.

Results

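The genes described here are 8 mouse genes whose products digest, deplete, edit or sense nucleic acids: Dnase1l3, Dnase2a, Trex1, Samhd1, Adar, Pld3, Pld4 and Zbp1. They were taken by name from a table of 19938 genes, each read from its brightest probe set (by the mean of all 6 arrays) among those that the platform table pairs with exactly 1 symbol. All 8 were found, each with a single probe set, and no further probe set with several symbols names any of them. The list was chosen by function and by the log2 differences between St2-/- and wild type arrays, which were already known, so every value of that difference below is a description of the 8 genes and no test of them.

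The F4/80+ cells were taken from tumours growing in St2-/- hosts (3 samples) or in wild type hosts (3 samples), and each sample had its own Affymetrix Gene 1.0 ST array. F4/80 marks mouse macrophages, and ST2 binds the cytokine IL-33. The genotype is that of the host; the kind of tumour, the strain, age and sex of the mice and the method of isolation are not stated in the labels. Nor is it stated that each sample is a different mouse, so standard errors and p-values cover the spread among these samples alone, possibly a technical one. With 3 arrays a group, precision is limited by their number.

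Nucleic acids of dying cells and of microbes reach macrophages by uptake and can set off interferon responses through sensors in endosomes and in the cytosol. Enzymes in the extracellular space, the lysosome and the cytosol remove or modify these ligands, and loss of such enzymes is known to cause inflammatory disease: TREX1, SAMHD1 and ADAR are genes of Aicardi-Goutières syndrome in humans, and DNASE1L3 is a gene of inherited lupus in humans. Several of the enzymes and sensors are themselves known as interferon-inducible genes.

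Promoter windows of 300 bases (250 before to 50 after the annotated start) were in the RefSeq table (GRCm38.p6) for 6 of the 8 genes, 9 windows in all, since a gene can have several starts. It held no window for Dnase1l3 or Zbp1, so the motif search says nothing of these genes. The 4 windows printed here are those of Samhd1 and Pld4, of the Adar start at which matches were found, and of Pld3, the gene of the 8 that was lower in St2-/-. Capitals mark matches, on either strand, to the motifs searched: the core of an interferon-stimulated response element (GAAA and again GAAA after a spacer of 2 bases), TTCNNNGAA (the STAT site), an NF-kB type site (GGGAA, a spacer of 3 bases and CC), GAGGAAGT (an ETS site as used by PU.1) and the shorter GAAANNGAA, which was added after the sequences were read and lies within every match of the response element core. Sequences run 5′ to 3′ on the strand of the gene.
Samhd1, chr2:157135047-157135346, minus strand: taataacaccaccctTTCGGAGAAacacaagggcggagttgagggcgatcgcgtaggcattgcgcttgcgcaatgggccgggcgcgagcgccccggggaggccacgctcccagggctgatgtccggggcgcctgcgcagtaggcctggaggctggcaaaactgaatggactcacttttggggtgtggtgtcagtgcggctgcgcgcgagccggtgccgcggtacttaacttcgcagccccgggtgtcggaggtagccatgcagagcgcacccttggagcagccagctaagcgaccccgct
Adar, chr3:89730468-89730767, plus strand: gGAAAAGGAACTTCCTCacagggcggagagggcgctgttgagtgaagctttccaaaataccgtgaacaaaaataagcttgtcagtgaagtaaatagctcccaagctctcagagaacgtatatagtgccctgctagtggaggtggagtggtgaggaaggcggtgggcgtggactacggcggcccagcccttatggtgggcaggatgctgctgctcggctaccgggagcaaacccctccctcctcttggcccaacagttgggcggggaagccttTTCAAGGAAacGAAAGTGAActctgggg
Pld4, chr12:112760405-112760704, plus strand: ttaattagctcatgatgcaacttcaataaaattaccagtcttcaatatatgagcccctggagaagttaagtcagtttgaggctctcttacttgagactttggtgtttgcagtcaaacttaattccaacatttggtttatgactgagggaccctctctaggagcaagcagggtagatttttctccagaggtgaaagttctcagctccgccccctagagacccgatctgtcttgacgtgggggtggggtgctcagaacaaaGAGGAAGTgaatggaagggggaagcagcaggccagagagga
Pld3, chr7:27553169-27553468, minus strand: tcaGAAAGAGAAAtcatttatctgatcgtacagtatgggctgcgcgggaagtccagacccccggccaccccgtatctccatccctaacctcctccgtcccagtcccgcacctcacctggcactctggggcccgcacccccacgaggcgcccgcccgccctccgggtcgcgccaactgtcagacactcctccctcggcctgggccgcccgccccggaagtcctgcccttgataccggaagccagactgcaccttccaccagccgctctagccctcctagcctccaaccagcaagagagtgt

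The match in Pld4 is the ETS form at positions 10 to 17 after the start. In Samhd1 it is the STAT form at -235 to -227. The Adar window holds the STAT form at 23 to 31 and GAAAGTGAA at 34 to 42, and farther upstream GAAAAGGAA at -249 to -241, which shares 1 base with an ETS match on the opposite strand at -241 to -234. The one window of the 9 with the full response element core is that of Pld3, at -247 to -238. Of all 32851 windows in the table, 3.44% hold the response element core, 8.3% TTCNNNGAA, 5.78% the NF-kB type site, 3.2% GAGGAAGT and 8.56% GAAANNGAA. Among the 9 windows of these genes the counts were 1, 2, 0, 3 and 2. The third window with the ETS form is that of a Trex1 start, on the opposite strand at 1 to 8. These are matches of letters, and whether any factor binds there was not measured.

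Of the DNA-digesting enzymes, Dnase1l3 stood far apart. Dnase1l3 is a secreted endonuclease of macrophages and dendritic cells that degrades DNA still packed in chromatin. Its values (probe set 10417526, log2 RMA scale) were 9.26, 9.18 and 9.22 in St2-/- and 5.85, 5.50 and 5.54 in wild type. The means were 9.22 ± 0.04 in St2-/- and 5.63 ± 0.19 in wild type (SD, n = 3 each), a log2 difference of 3.59 ± 0.094 (SE), or 12.0-fold. The groups were 3.33 apart at their nearest arrays, and the difference ranked 2 among the rises of all 19938 genes. In wild type the signal lay below the array medians of 5.88 to 5.93, in St2-/- far above the medians of 5.81 to 5.82. Because probe sets differ in brightness, this says only where the signal lies on the array.

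Trex1, the DNA exonuclease of the cytosol, differed far less. Trex1 (probe set 10596960) had 7.14, 7.08 and 7.17 in St2-/-, and 6.77, 6.89 and 6.87 in wild type. Its log2 difference was 0.29 ± 0.065 (SE), a 1.22-fold higher level, with 0.19 between the nearest arrays of the groups. In the reference gene table Trex1 overlaps the readthrough transcript Atrip-trex1, so its signal may include that RNA; the neighbouring gene Atrip, with its own probe set, averaged 6.65 ± 0.06 in St2-/- and 6.84 ± 0.03 in wild type (SD, n = 3 each), and the limma test did not call it (adjusted p = 0.0731).

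Dnase2a, the acid DNase of the lysosome that digests DNA of engulfed cells, did not separate the groups. The values of Dnase2a (probe set 10573461) were 8.51, 8.53 and 8.39 in St2-/- and 8.42, 8.41 and 8.33 in wild type. The groups overlapped, and the log2 difference was 0.09 ± 0.067 (SE). It is the 1 gene of the 8 for which they overlapped.

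The paired lysosomal exonucleases went in opposite directions. Pld3 and Pld4 are related enzymes of the endolysosome that trim single-stranded DNA and RNA and so limit the ligands of Tlr9 and Tlr7. Pld4 (probe set 10398907) had 12.24, 12.20 and 12.25 in St2-/- and 11.70, 11.86 and 11.87 in wild type, a log2 difference of 0.42 ± 0.069 (SE). Pld3 (probe set 10561306) had 9.55, 9.54 and 9.59 in St2-/- and 9.78, 9.89 and 9.77 in wild type, a log2 difference of -0.25 ± 0.064 (SE). Every St2-/- array was above every wild type array for Pld4 and below every one for Pld3, by 0.33 and 0.18 at the nearest arrays. In fold terms Pld4 was 1.34-fold higher and Pld3 1.19-fold lower in St2-/-.

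Samhd1, which splits deoxynucleotides and so depletes the building blocks of DNA, was among the more strongly raised of the 8. Samhd1 (probe set 10489107) had 11.13, 11.05 and 11.12 in St2-/- and 10.46, 10.48 and 10.44 in wild type. The difference was 0.64 ± 0.061 (SE) on the log2 scale, 1.56-fold, and the groups were 0.57 apart at their nearest arrays, against ranges of 0.08 within St2-/- and 0.04 within wild type.

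Adar, which converts adenosine to inosine in double-stranded RNA and so keeps the cell's own RNA from its sensors, showed the widest spread within St2-/- of the 7 genes whose groups did not overlap. Adar (probe set 10493565) had 8.83, 8.88 and 8.70 in St2-/- and 8.53, 8.33 and 8.52 in wild type. The log2 difference was 0.34 ± 0.080 (SE), with 0.17 between the nearest arrays. The gene makes a constitutive and an interferon-inducible isoform from different starts, and a single probe set does not tell them apart. In the reference gene table Adar overlaps Chrnb2, a neuronal receptor subunit gene, whose own probe set differed by -0.04 ± 0.098 (SE).

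Zbp1, a sensor of Z-form nucleic acids that can start necroptosis through Ripk3, had the second greatest difference of the 8. Zbp1 (probe set 10490150) had 9.53, 9.47 and 9.51 in St2-/- and 8.67, 8.73 and 8.77 in wild type. Its log2 difference was 0.78 ± 0.062 (SE), a 1.72-fold higher level, with 0.70 between the nearest arrays.

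**Figure D1:**
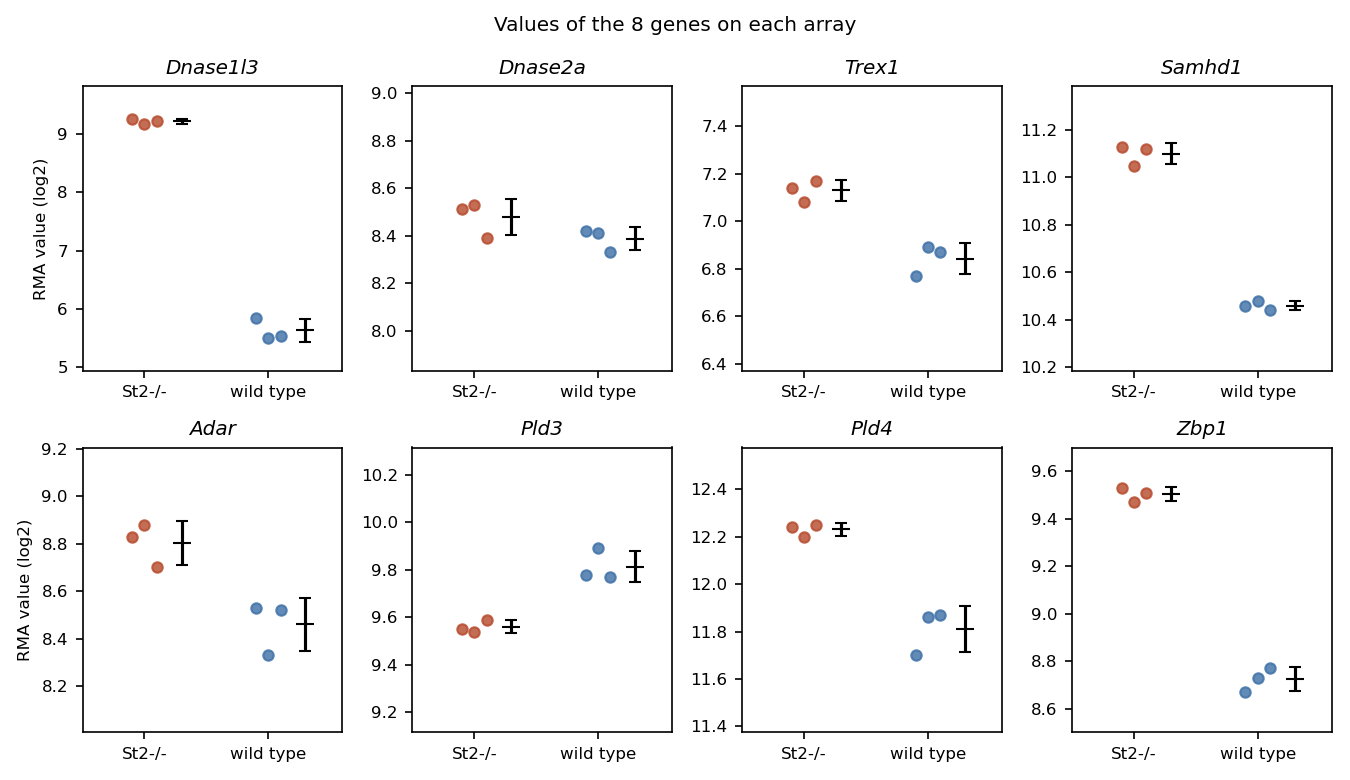
RMA values (log2) of the 8 genes on the 3 St2-/- and the 3 wild type arrays, each gene on its own axis; points are arrays, bars the mean with SD. Dnase1l3 spans more than 3 log2 units between groups, Pld3 is the gene that lies lower in St2-/-, and the groups of Dnase2a overlap.

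In the limma fit over all genes, 6 of the 8 were higher, 1 (Pld3) was lower and 1 (Dnase2a) was not called at an adjusted p of 0.05. Over all genes 20.8% were called, 10.7% higher and 10.0% lower in St2-/-, and the groups did not overlap for 36.4%, against 7 of these 8. Since the 8 genes were chosen with this comparison known, nothing is read from that count. Their median log2 difference was 0.38, against -0.02 over all genes, and the middle 95% of all genes lay between -0.61 and 0.54, a span that Dnase1l3, Zbp1 and Samhd1 exceeded. Calls of the smaller differences depended on single arrays and on scaling: Pld3 was not called without wild type replicate 2, without any one of the 3 St2-/- replicates or with each array centred on its median; Adar was not called without St2-/- replicate 2 or after cyclic loess; Trex1 was not called without St2-/- replicate 3. Centring also changed the calls over all genes to 3686 higher and 1294 lower, against 2142 and 1998.

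**Figure D2:**
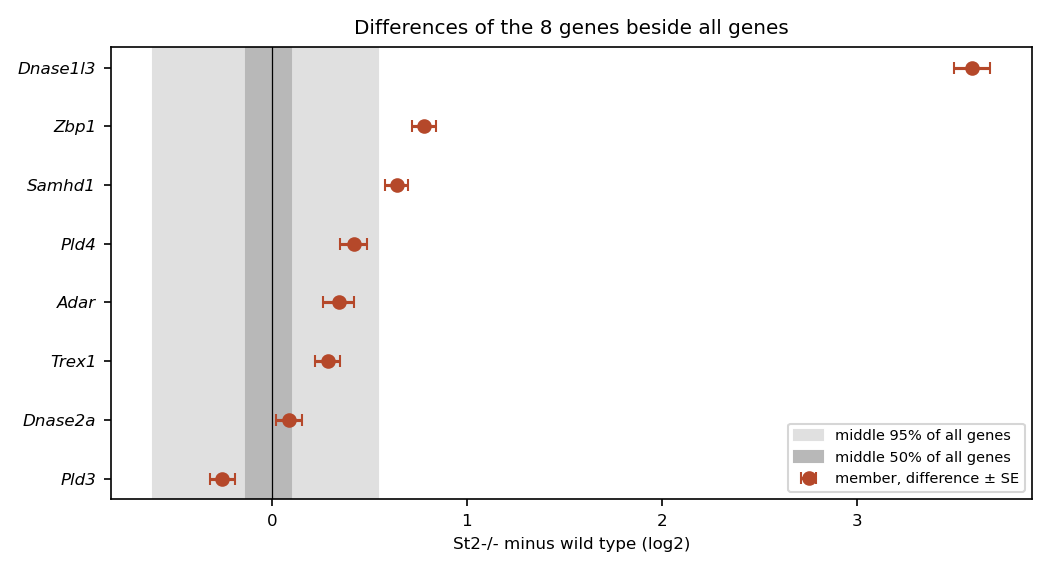
Log2 difference (St2-/- minus wild type) with its SE for the 8 genes; the light band holds the middle 95% of all 19938 genes (-0.61 to 0.54) and the dark band the middle 50%. Dnase1l3 lies at 3.59, Zbp1 and Samhd1 lie just beyond the light band, and the other genes lie within it.

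The genes whose profiles over the 6 arrays were most alike were found by the root mean square difference between profiles, each centred on its own mean. For Dnase1l3 they were Gbp2b, an interferon-inducible GTPase (0.08 log2 units), the dendritic cell chemokine receptor Xcr1 (0.13) and Il2ra, a chain of the IL-2 receptor (0.14). Gbp2b has near-identical relatives, so its value is uncertain. For Samhd1 they were the class II gene H2-Ab1 (0.02), the sterol exporter Abcg1 (0.02) and the ubiquitin ligase Rnf114 (0.02). For Trex1 they were the Polycomb ligase Rnf2 (0.01), the mitotic enzyme Ube2c (0.01) and the glycolytic enzyme Tpi1 (0.02). With 6 arrays in 2 groups, this measure is small mainly for genes with a like difference between the genotypes: Rnf2 differed by 0.28 and H2-Ab1 by 0.65 on the log2 scale.

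The genes next to the 8 on the chromosome were read as well. Of the 16 nearest genes, 1 on each side, 14 had a value, and 1 was called higher, 2 lower and 11 not called, where 20.8% of all genes were called. Rbl1, a retinoblastoma-family regulator beside Samhd1, was higher (0.27 ± 0.068, SE; limma adjusted p = 0.0191). Ahnak2 beside Pld4 was lower (-0.77 ± 0.072, SE; limma adjusted p = 5.7e-05), as was Pmepa1, a TGF-beta response gene beside Zbp1 (-0.26 ± 0.068, SE; limma adjusted p = 0.0248). Abhd6, a lipase gene beside Dnase1l3, averaged 6.52 ± 0.12 in St2-/- and 6.39 ± 0.11 in wild type (SD, n = 3 each), a difference that was not called (limma adjusted p = 0.343).

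Other genes of the same processes, or of the same family by name, were followed as lists that do not hold the 8, again written with earlier results of these data known. Of 27 sensors of nucleic acids and their adaptors measured, 18 were higher in St2-/-, 2 were lower and 7 did not pass, and the median log2 difference was 0.29, against -0.02 over all genes. In all, 74.1% of this list were called, against 20.8% of all genes. The number called higher was 12 without St2-/- replicate 3, 13 without wild type replicate 3 and 13 with all rows of the table tested. Tlr9, the endosomal DNA receptor, had 9.88, 9.72 and 9.73 in St2-/- and 8.67, 8.58 and 8.76 in wild type, a difference of 1.11 ± 0.075 (SE; limma adjusted p = 7.64e-06). Dhx58, a cytosolic helicase of the RIG-I family, rose by 0.84 (limma adjusted p = 3.5e-05). Unc93b1, the chaperone that carries Tlr9 and related receptors to endosomes, rose by 0.43 (limma adjusted p = 0.000921), and the adaptor Ticam1 by 0.42 (limma adjusted p = 0.00116). The members that went the other way were Cd14, a co-receptor (-0.35; limma adjusted p = 0.00608), and Tlr8 (-0.23; limma adjusted p = 0.0273), whose call was lost under 6 of 15 alternatives. Named after their values were seen, Cgas, which makes the messenger cGAMP on cytosolic DNA, and Sting1, its receptor, rose by 0.29 and 0.42 (limma adjusted p = 0.0106 and 0.00118), the first of these without its call when St2-/- replicate 3 was left out (adjusted p = 0.0523).

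Of 13 other DNases measured, 2 were higher and 11 not called, with a median of -0.003. That is 15.4% called, against 20.8% of all genes. The repair nucleases Exo1 and Mre11a rose by 0.21 and 0.19, close to the threshold (limma adjusted p = 0.0491 and 0.0499), and lost their calls under 9 and 10 of 15 alternatives. Named after their values were seen, the relatives of Dnase1l3 did not pass the test: Dnase1 averaged 4.25 ± 0.07 in St2-/- and 4.43 ± 0.06 in wild type, and Dnase1l1 7.93 ± 0.05 in St2-/- and 7.82 ± 0.05 in wild type (SD, n = 3 each), with differences of -0.18 ± 0.067 and 0.11 ± 0.064 (SE; limma adjusted p = 0.0963 and 0.273). Dnase1l2 differed by -0.03 ± 0.120 (SE; limma adjusted p = 0.894). By its mean Dnase1 lay at percentile 23.8 of all genes, and its signal was not shown to lie above background.

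RNA-degrading enzymes, with the RNase inhibitor gene Rnh1, had 7 members higher, 1 lower and 22 not called of 30, with a median of 0.08. The share called was 26.7%, against 20.8% of all genes. Rnase6, a secreted antimicrobial RNase of myeloid cells, had 8.16, 7.99 and 8.15 in St2-/- and 6.78, 6.63 and 6.56 in wild type, a difference of 1.44 ± 0.080 (SE; limma adjusted p = 2.04e-06). Rnase2a, an eosinophil-associated RNase gene with close relatives whose probes may overlap, had 4.68, 3.97 and 4.09 in St2-/- and 6.13, 6.01 and 5.99 in wild type, a difference of -1.80 ± 0.157 (SE; limma adjusted p = 3.78e-05). These 2 RNases thus moved by more than 1 log2 unit in opposite directions, and Rnase2a was not tested with the dimmest 40% of genes left out. The interferon-induced exonuclease Isg20 and the RNase Zc3h12d rose by 0.39 and 0.53 (limma adjusted p = 0.00163 and 0.0037). The number of RNases called higher was 4 without St2-/- replicate 1, and 4 without St2-/- replicate 3.

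The 2-5A synthetase (Oas) family is named for enzymes that make the activator of RNase L on double-stranded RNA, though some members, such as mouse Oasl1 and Oas1b, lack that activity. Listed with Pde12, which degrades the activator, the family had 7 members higher, 0 lower and 5 not called of 12, with a median of 0.47. Called were 58.3%, against 20.8% of all genes. Oas3 rose by 1.39, Oasl1 by 0.79, Oasl2 by 0.65 and Oas2 by 0.56 (limma adjusted p = 7.68e-07, 1.77e-05, 0.000248 and 0.000401). Oas genes share sequence, so their separate values are uncertain. RNase L itself was not analysed here.

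Of 12 editing enzymes and base deaminases measured, 2 were higher, 1 lower and 9 not called, with a median of 0.02. That is 25% called, against 20.8% of all genes. Apobec1, a cytidine deaminase that edits RNA, had 11.84, 11.76 and 11.88 in St2-/- and 11.04, 10.91 and 10.74 in wild type (0.93 ± 0.084, SE; limma adjusted p = 4.79e-05). Apobec3, the antiviral deaminase that acts on single-stranded DNA, had 8.02, 8.06 and 8.11 in St2-/- and 8.93, 9.27 and 8.89 in wild type (-0.97 ± 0.099, SE; limma adjusted p = 0.000105). Neither pair of groups overlapped, and the shifts had nearly the same size with opposite sign. Adat2, a tRNA deaminase, rose by 0.33 (limma adjusted p = 0.0457) and lost its call under 6 of 15 alternatives. The other phospholipase D genes were listed by family name, not for an action on nucleic acids. Of these, 3 of 6 were lower and 0 higher (median -0.23), the lower ones being Pld6 (-0.36), Pld2 (-0.32) and Pld1 (-0.29; limma adjusted p = 0.00884, 0.0219 and 0.0401). Of the 6 genes 50% were thus called, against 20.8% of all genes. Pld2 lost its call under 5 and Pld1 under 7 of 15 alternatives, and with arrays centred on their median only Pld6 of the 3 was called.

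Of 26 genes of deoxynucleotide synthesis and turnover, the pool that Samhd1 acts on, 8 were higher, 0 lower and 18 not called (median 0.07). That is 30.8% called, against 20.8% of all genes. Nt5c3, a pyrimidine nucleotidase, rose by 0.96 (limma adjusted p = 4.76e-05), and Slc29a3, the lysosomal nucleoside transporter, by 0.82 (5.89e-05). The kinase genes Cmpk2 and Cmpk1 rose by 0.64 and 0.51 (limma adjusted p = 0.000166 and 0.000744). After cyclic loess 2 genes of this list were called lower. With all rows of the table tested, without wild type replicate 1 or without St2-/- replicate 3, 5 were called higher.

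Among 9 partners and cell death genes downstream of Zbp1 with a value (Ripk1 had none), 4 were higher, 1 lower and 4 not called (median 0.18). The list thus had 55.6% called, against 20.8% of all genes. Mlkl, which carries out necroptosis, rose by 0.40 (limma adjusted p = 0.00436), the inflammatory caspase gene Casp1 by 0.49 (0.00222), the pore protein gene Gsdmd by 0.31 (0.0127) and the inflammasome adaptor gene Pycard by 0.25 (0.036). The inflammasome sensor Nlrp3 was lower (-0.37; limma adjusted p = 0.00359). Ripk3, the direct partner of Zbp1, averaged 8.57 ± 0.05 in St2-/- and 8.40 ± 0.08 in wild type (SD, n = 3 each) and was not called (limma adjusted p = 0.11). Pycard lost its call under 8 of 15 alternatives and Gsdmd under 2, and 2 genes of this list were called higher after cyclic loess or without St2-/- replicate 3.

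Of 10 outer surface hydrolases and carriers of nucleotides and cGAMP with a value (Enpp1 had none), 4 were higher, 4 lower and 2 not called (median -0.04). Both directions together made 80% called, against 20.8% of all genes. Enpp4 rose by 0.94 and Nt5e, which makes adenosine from AMP, by 0.70 (limma adjusted p = 3.99e-05 and 0.000322), and the channel subunit gene Lrrc8a fell (-0.62; limma adjusted p = 0.000224). Enpp3 was also called lower (-0.51; limma adjusted p = 0.000317), but averaged 3.42 in St2-/- and 3.93 in wild type, near the low end of a scale that starts at 2.02; its signal was not shown to lie above background, and it was not tested with the dimmest 40% of genes left out. The 4 lower calls became 2 when all rows of the table were tested or without wild type replicate 1, wild type replicate 3, St2-/- replicate 2 or St2-/- replicate 3.

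**Figure D3:**
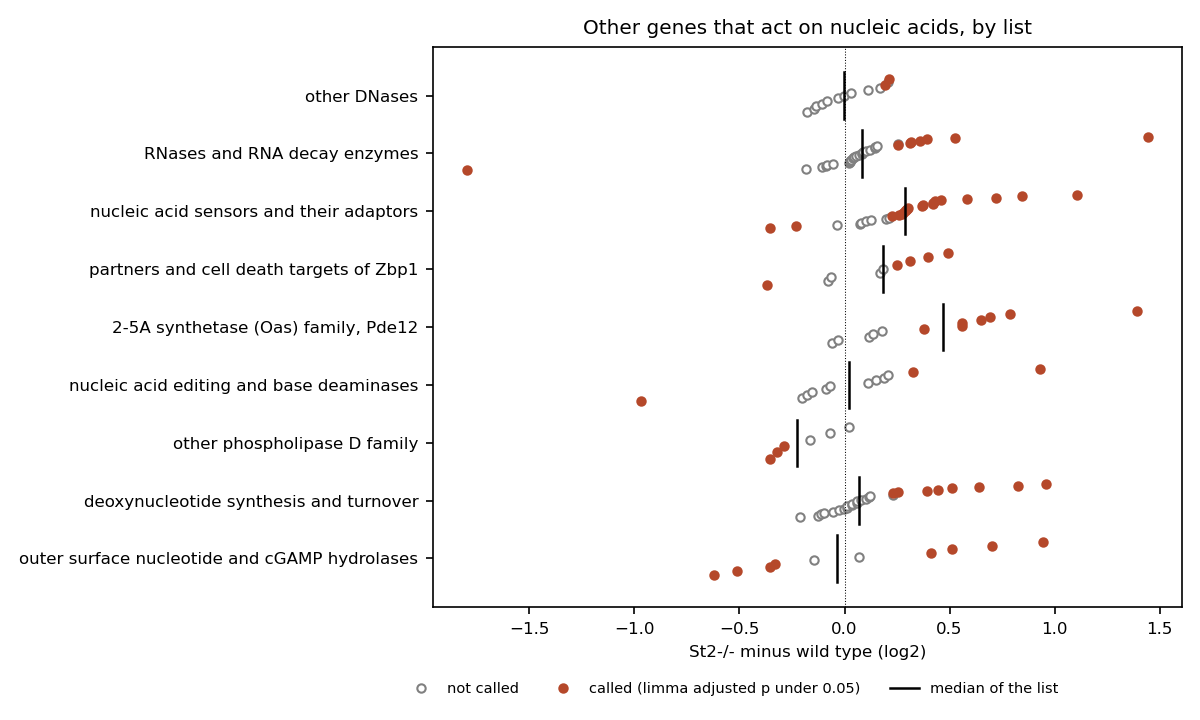
Log2 difference (St2-/- minus wild type) of each gene in 9 lists that do not hold the 8 genes; filled points were called by limma at an adjusted p under 0.05, open points were not, and the vertical bar is the median of the list. The medians of the sensors (0.29) and of the Oas family with Pde12 (0.47) lie above 0, the other DNases centre on it, and RNases and deaminases each hold far outlying genes on both sides.

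Several of the 8 genes are known from cells other than macrophages, so markers of those cells were read beside them. Of 10 macrophage markers 2 were higher, 4 lower and 4 not called (median -0.04), and on a scale that ran from 2.02 to 14.15 the defining ones were bright in both groups: Csf1r averaged 12.11 ± 0.04 in St2-/- and 12.07 ± 0.02 in wild type, and Adgre1, the gene of F4/80, 11.63 ± 0.04 in St2-/- and 11.32 ± 0.04 in wild type (SD, n = 3 each). The higher ones were Fcgr1 (0.36) and Adgre1 (0.31; limma adjusted p = 0.00272 and 0.00631). The lower ones were the scavenger receptor gene Msr1 (-0.76), Mertk, a receptor for the uptake of dying cells (-0.72), the lysozyme gene Lyz2 (-0.71) and Cd14 (-0.35; limma adjusted p = 4.04e-05, 2.99e-05, 7.86e-05 and 0.00608). Of the 10, 60% were called, against 20.8% of all genes. The summed linear signal of the 10 was 38000 to 39600 in St2-/- and 42100 to 43300 in wild type. The part of these shifts in the values of the 8 genes was not tested. Dendritic cells also make Dnase1l3. Markers of type 1 dendritic cells had 6 of 10 higher, 0 lower and 4 not called (median 0.47), and their summed linear signal was 3080 to 3190 in St2-/- and 1590 to 1640 in wild type. Here too 60% were called. Xcr1 and Clec9a rose by 3.37 and 1.88, and Cadm1 and Irf8 by 1.21 and 0.72 (limma adjusted p = 9.69e-09, 3.37e-06, 2.32e-06 and 5.39e-05), whereas Flt3, Batf3, Zbtb46 and Itgae, the 4 not called, differed by between -0.24 and -0.01. The part of such cells in the values of Dnase1l3 was not tested. In bulk samples, a change in the number of cells of a type and a change of RNA per cell cannot be told apart.

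Pld4 and Tlr9 are known from plasmacytoid dendritic cells and B cells. Of 9 plasmacytoid markers 1 (Bst2, which interferon also induces, 0.52) was higher, 0 lower and 8 not called (median -0.05), and Siglech, their defining receptor, averaged 4.87 ± 0.10 in St2-/- and 4.87 ± 0.05 in wild type (SD, n = 3 each). Their summed signal was 3690 to 3890 in St2-/- and 2910 to 3080 in wild type with Bst2, and 1060 to 1090 in St2-/- and 1100 to 1140 in wild type without it. Of 8 B cell markers 2 were higher, 0 lower and 6 not called, Cd79b by 0.80 and Ms4a1 by 0.48 (limma adjusted p = 4.82e-05 and 0.00407), with a summed signal of 345 to 365 in St2-/- and 247 to 277 in wild type. Without Cd79b the sum was 127 to 129 in St2-/- and 123 to 135 in wild type. Ms4a1 averaged 4.16 in St2-/- and 3.68 in wild type, near the low end of the scale, and Cd79a (-0.23), Cr2 (-0.14), Blk (-0.08) and Pax5 (0.01) were not called. The part of these cells in the value of Pld4 was not tested. Called were 11.1% of the plasmacytoid and 25% of the B cell markers, against 20.8% of all genes. T cell markers had 5 higher and 5 not called of 10 (50% called), and NK cell markers 5 higher and 4 not called of 9 (55.6%). The summed signal of the T cell markers was 702 to 755 in St2-/- and 401 to 446 in wild type. Cd4, the brightest of them in both groups, had the greatest difference, with means of 8.10 in St2-/- and 5.91 in wild type. Cd3g (0.94), Cd3e (0.72), Cd5 (0.41) and Cd8a (0.30) also rose on the log2 scale. Cd3d, Cd247, Cd2, Lat and Thy1 were not called and differed by between -0.01 and 0.14. For the NK cell markers the sum was 330 to 411 in St2-/- and 155 to 158 in wild type. Klrk1 had the greatest difference of these, with means of 7.46 in St2-/- and 4.08 in wild type. Nkg7 (1.45), Gzmb (0.40), Klrd1 (0.36) and Prf1 (0.35) also rose. Eomes, Ncr1, Klrb1c and Gzma were not called and differed by between -0.12 and 0.13. Neutrophil markers had 1 higher and 4 lower of 10 (50% called), and fibroblast markers 1 higher and 6 lower of 9 (77.8%). Endothelial markers had 3 higher and 4 lower of 8 (87.5%), and epithelial markers 0 higher and 1 lower (Krt8, -0.35) of 7 (14.3%). Calls were lost by Eng under 10, Krt8 under 7, Cd8a under 6 and Col1a1 under 5 of 15 alternatives. Of 14 alternatives in which they were tested, Cxcr2 lost its call under 8, Cldn5 under 7 and Klrd1 under 5. Fibroblast markers summed to 961 to 1030 in St2-/- and 3800 to 3960 in wild type, neutrophil markers to 560 to 577 and 663 to 706. Dcn, the brightest fibroblast marker in both groups, averaged 8.01 in St2-/- and 11.34 in wild type. Lum (-3.56), Pdgfra (-1.74), Pdgfrb (-1.40), Col3a1 (-0.61) and Col1a1 (-0.34) also fell, and Col1a2 rose (0.35). Csf3r, the brightest neutrophil marker in both groups, averaged 8.47 in St2-/- and 7.97 in wild type. S100a8 (-1.77), S100a9 (-1.69), Retnlg (-1.28) and Cxcr2 (-0.37) fell. Endothelial markers summed to 1100 to 1120 in St2-/- and 955 to 1070 in wild type, epithelial markers to 729 to 767 and 779 to 865. Within the endothelial list Kdr (1.52), Pecam1 (0.89) and Eng (0.20) rose on the log2 scale. Cdh5 (-1.46), Emcn (-1.31), Vwf (-1.13) and Cldn5 (-0.28) fell, and Tek was not called. A sum of linear values weighs the brightest genes most, so it does not show these falls. What part these other cells had in the values of the 8 genes was not tested. RMA values have no true zero, so no marker can be called absent.

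**Figure D4:**
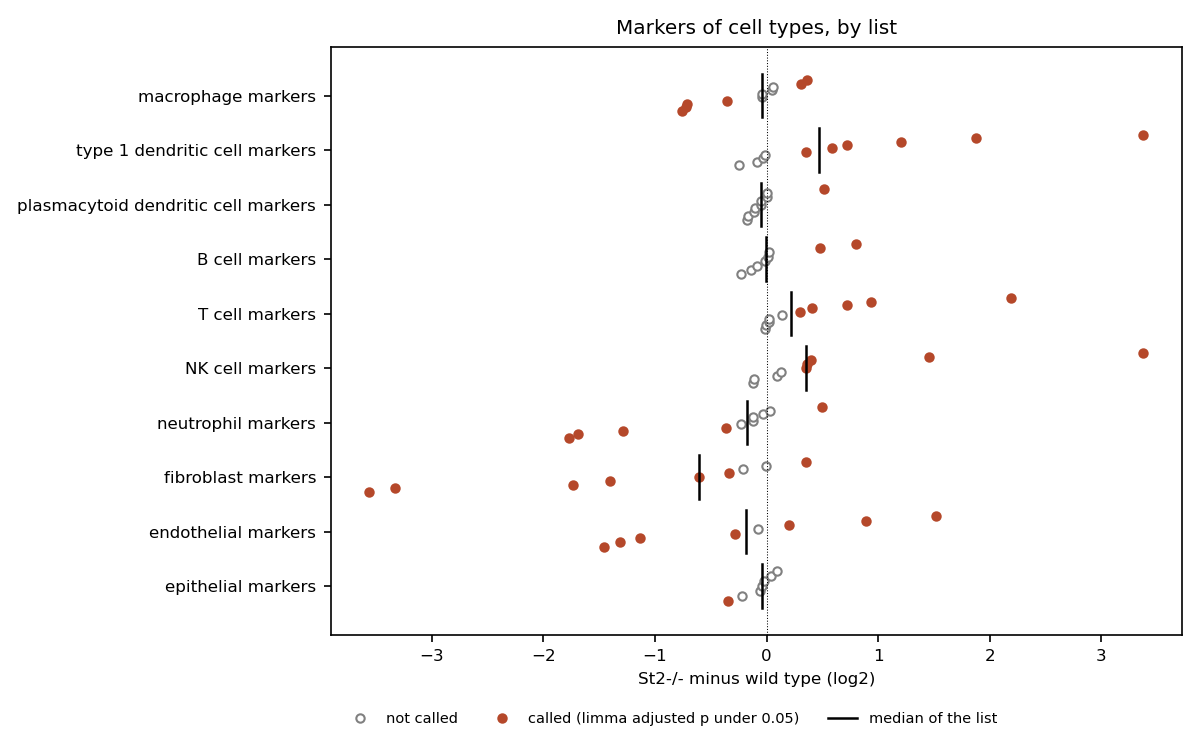
Log2 difference (St2-/- minus wild type) of markers of 10 cell types; filled points were called by limma at an adjusted p under 0.05, and the vertical bar is the median of the list. Macrophage and plasmacytoid markers centre near 0, type 1 dendritic cell markers spread from -0.24 to 3.37, and fibroblast markers lie mostly below 0.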

How the data were processed

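Each of 6 RNA samples was run on an Affymetrix Gene 1.0 ST array, per the labels' protocols. The authors deposited RMA values, per the submitters' processing notes, read here as log2 because RMA returns that scale; version and annotation of RMA are not stated. RMA equalises the distributions of arrays, which hides any change common to most genes. The table held 35556 probe sets, of which 21789 carry 1 symbol in the platform table, 1621 several and 12146 none.

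The genotypes were compared with limma 3.58.1, R 4.3.3 (lmFit, eBayes, two-sided, St2-/- minus wild type, Benjamini-Hochberg over 19938 genes, called at an adjusted p under 0.05). The fit was also run on simulated data, where recovery was required only at the greatest shift simulated. That requirement does not cover smaller differences. No filter on dim genes was set. Pearson correlations between arrays were 0.996 to 0.998 within and 0.986 to 0.988 between groups. The gene of ST2 was not analysed here, so it gives no check of the genotypes.

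The 8 genes and all lists were chosen with earlier results of these data known. Named genes are the 8, up to 4 called genes of smallest p per list (all of them where 5 or fewer were called), the 3 most alike genes of Dnase1l3, Trex1 and Samhd1, and chromosome neighbours. Exceptions are stated, and further T cell, NK cell, fibroblast and endothelial markers were named after their values were seen. Summed signals add the values of a list after raising 2 to them. Alternatives were scaling, variance prior, probe sets, dim genes, array weights, replicate block and leaving out each array. Promoters and gene order are from RefSeq, GRCm38.p6.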

Additional observations from a re-analysis of the deposited data

Results flagged for a closer look

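Probe sets that carry several gene symbols stood outside the comparison, and 4 of those that name a gene of the lists were higher in St2-/- in a limma fit over all rows of the table. That fit called 12.9% of all rows. The probe set shared by Rnase4 and Ang was called lower and is given under other observations. The remaining ones, most of which name Hmgb1, were not called. The probe set shared by Oas1a and Oas1g averaged 9.15 in St2-/- and 8.51 in wild type, a log2 difference of 0.64 (limma adjusted p = 0.00205). The one shared by Ifi211 and Ifi204, genes of the AIM2-like receptor family, averaged 10.51 in St2-/- and 10 in wild type, a difference of 0.51 (limma adjusted p = 0.0114). Both probe sets shared by Rnaset2a and Rnaset2b, lysosomal RNases that prepare ligands for Tlr8 in humans, differed by 0.29 and 0.30 (limma adjusted p = 0.023 and 0.0217). None of these can be given to a single gene. Groups of 3 arrays are too small for a test of outlying samples.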

How the results depend on the processing

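Under the 15 alternatives run, the 8 genes kept the sign of their differences. Dnase1l3, Samhd1, Pld4 and Zbp1 were called higher under each of them, with differences of 3.53 to 3.70, 0.54 to 0.73, 0.33 to 0.51 and 0.69 to 0.87. Trex1 lay between 0.25 and 0.38, Adar between 0.26 and 0.43, Pld3 between -0.35 and -0.16 and Dnase2a between 0.01 and 0.18. With each array centred on its median, 3686 genes were called higher and 1294 lower, and 0 of the 8 were lower. Leaving out each array in turn gave 5 to 6 of the 8 higher and 0 to 1 lower. Of 115 other genes followed, 83 were called under all alternatives in which they were tested, and none changed sign. With the replicate number as a block (replicate block), 3571 genes were called against 4140 and the calls of the 8 did not change. Same-numbered arrays deviated from their group means with correlations of 0.012, -0.012 and -0.048 and did not all correlate best with their own number. No shared deviation by number was thus seen, but such correlations cannot show that the samples were unpaired. The cause of the shifts between alternatives was not tested.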

Other observations

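The probe set shared by Rnase4 and Ang, secreted RNases encoded in 1 locus, averaged 9.44 in St2-/- and 9.90 in wild type, a log2 difference of -0.45 (limma adjusted p = 0.0111 over all rows of the table). The 3 subunit genes of RNase H2, which removes ribonucleotides from DNA and is the product of further Aicardi-Goutières genes in humans, differed by -0.11 (Rnaseh2a), 0.03 (Rnaseh2b) and -0.05 (Rnaseh2c) and were not called (limma adjusted p = 0.371, 0.853 and 0.699). They were named after their values were seen.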
